A study of Mus musculus with 6 samples.

Results

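Kcnj8, Abcc9, Gucy1a1, Gucy1b1, Kcnk3, Trpc6, Atp13a5, Higd1b, Cox4i2 and Rgs5 encode ion channels, a cGMP-producing enzyme and marker proteins of pericytes, the mural cells that wrap capillaries. These 10 genes were found by symbol among the 56884 genes of the count tables, and each of them had counts in all 6 libraries. Unique molecular identifiers (UMIs), which stand for single captured transcripts, were summed per library over the barcodes that marker genes assigned to a cell class. None of the 10 genes took part in that assignment.

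Single-cell transcriptomes came from 4 lung libraries at postnatal day (P) 21 and from 2 libraries of the cerebral cortex at P12. The lungs belonged to Bdnf lox/lox controls, Bdnf iPCKO mutants, Hgf lox/lox controls and Hgf iPCKO mutants, and the cortices to Nodal lox/lox controls and Nodal iPCKO mutants. iPCKO mutants carried the tamoxifen-inducible Pdgfrb(BAC)-CreERT2 transgene on the same floxed alleles that their lox/lox controls had. This transgene is active in vascular smooth muscle cells as well as in pericytes. The mice received 50 µg of tamoxifen a day from P1 to P3. Each library pooled cells of 2 mice of a single genotype, so that no condition was replicated and no difference could be tested. Lungs were depleted of CD45+ cells and erythrocytes, whereas the cortices were freed of meninges and myelin debris. Organ, age, dissociation and library therefore changed together between lung and cortex and cannot be told apart.

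The libraries held 33889545 to 186701379 UMIs and 3237 to 24311 barcodes above the minimum of 1500 UMIs, or of 700 UMIs in the shallower Hgf libraries. Library pairs shared 21 to 457 of these barcodes, where 17.8 to 456.9 would be expected of independent libraries. The Hgf iPCKO lung and Nodal iPCKO cortex shared 116 against 88.7 expected. The Hgf control lung shared 108 with the Nodal iPCKO cortex against 80.2, and 432 with the Bdnf iPCKO lung against 389.5. Some pairs were below the expected number, such as the Bdnf and Hgf iPCKO lungs with 404 against 430.3. Pericyte-gated barcodes carried Notch3 and at least 1 more of the markers Cspg4, Heyl, Vtn, Art3 and Lipg, and all 6 markers were detected in this class in every library. They numbered 74 in the Bdnf control lung, 88 in the Bdnf iPCKO lung, 33 in the Hgf control lung, 130 in the Hgf iPCKO lung, 254 in the Nodal control cortex and 376 in the Nodal iPCKO cortex. Their median depth was 3522.5, 2796.5, 1954, 1578, 5452 and 5650.5 UMIs in the same order, and the estimated share of free RNA among their UMIs ranged from 4.35 to 15.3%. In the class as a whole, the floxed genes had 6 Bdnf UMIs in the Bdnf control against 1 in the mutant, 17 Hgf UMIs in the Hgf control against 5, and 181 Nodal UMIs in the Nodal control against 0. Pdgfrb, whose promoter drives the transgene and which was left out of the gate, had 727, 1397 and 847 CPM in pericytes of the Bdnf, Hgf and Nodal controls and 2204, 4127 and 2134 CPM in those of the mutants, CPM being UMIs per 1000000 UMIs of the gated cells.

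Kcnj8 and Abcc9 form the pore and the sulfonylurea receptor of the ATP-sensitive potassium channel of vascular mural cells, which opens when cellular ATP falls and hyperpolarizes the cell. Gucy1a1 and Gucy1b1 are the subunits of soluble guanylyl cyclase, the receptor through which nitric oxide raises cGMP and relaxes contractile cells. Kcnk3 is an acid-sensitive leak potassium channel, Trpc6 a receptor-operated cation channel that admits calcium, Atp13a5 a P-type ATPase, Higd1b a mitochondrial protein of the hypoxia-inducible domain family, Cox4i2 the low-oxygen isoform of a cytochrome c oxidase subunit, and Rgs5 a regulator of G-protein signaling.

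Both subunit pairs lie next to each other in the genome. On GRCm39, Kcnj8 (chr6:142510563-142517830) and Abcc9 (chr6:142533588-142648571) follow each other on the minus strand with 15757 bases and no other protein-coding gene between them. Gucy1b1 (chr3:81939312-81982022) and Gucy1a1 (chr3:81999733-82053216) share the minus strand as well and are 17710 bases apart, again without a protein-coding gene in between. The other genes are dispersed, with Kcnk3 at chr5:30745243-30783689, Trpc6 at chr9:8492905-8682359, Higd1b at chr11:102726404-102735661, Cox4i2 at chr2:152595625-152606959 and Rgs5 at chr1:169483036-169524887, these being on the plus strand, and Atp13a5 at chr16:29049416-29197576 on the minus strand.

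The sequences directly upstream of the canonical transcripts are shown for both subunit pairs, whose members had similar patterns, and for Atp13a5 and Cox4i2, which held a motif match in the part shown. Each runs 5′ to 3′ on the coding strand and stops where exons of other isoforms begin, apart from 16 such exonic bases kept for Gucy1b1, and capitals mark motif matches. The stretches are chr6:142517831-142518080 for Kcnj8, chr6:142648099-142648190 for Abcc9, chr3:82053217-82053466 for Gucy1a1, chr3:81982007-81982256 for Gucy1b1, chr16:29197577-29197826 for Atp13a5 and chr2:152595871-152596062 for Cox4i2.
Kcnj8: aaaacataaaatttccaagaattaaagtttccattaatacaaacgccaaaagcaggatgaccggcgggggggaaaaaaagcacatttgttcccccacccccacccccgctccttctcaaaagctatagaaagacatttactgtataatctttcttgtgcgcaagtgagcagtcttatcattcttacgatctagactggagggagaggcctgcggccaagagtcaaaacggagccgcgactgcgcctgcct
Abcc9: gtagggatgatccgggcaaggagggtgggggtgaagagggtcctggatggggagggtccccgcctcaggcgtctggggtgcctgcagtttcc
Gucy1a1: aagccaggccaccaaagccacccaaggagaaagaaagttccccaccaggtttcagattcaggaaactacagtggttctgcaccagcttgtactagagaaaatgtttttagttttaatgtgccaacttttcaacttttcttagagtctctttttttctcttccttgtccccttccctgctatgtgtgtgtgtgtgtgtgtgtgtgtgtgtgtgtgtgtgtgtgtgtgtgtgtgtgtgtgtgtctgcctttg
Gucy1b1: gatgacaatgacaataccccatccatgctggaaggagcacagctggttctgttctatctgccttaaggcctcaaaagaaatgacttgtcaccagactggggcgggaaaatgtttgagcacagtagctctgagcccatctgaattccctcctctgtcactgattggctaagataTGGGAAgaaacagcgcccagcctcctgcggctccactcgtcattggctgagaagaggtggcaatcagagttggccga
Atp13a5: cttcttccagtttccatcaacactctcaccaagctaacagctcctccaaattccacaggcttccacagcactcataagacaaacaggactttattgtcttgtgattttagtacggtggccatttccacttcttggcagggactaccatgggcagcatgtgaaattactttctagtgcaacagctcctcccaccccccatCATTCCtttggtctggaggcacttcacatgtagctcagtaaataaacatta
Cox4i2: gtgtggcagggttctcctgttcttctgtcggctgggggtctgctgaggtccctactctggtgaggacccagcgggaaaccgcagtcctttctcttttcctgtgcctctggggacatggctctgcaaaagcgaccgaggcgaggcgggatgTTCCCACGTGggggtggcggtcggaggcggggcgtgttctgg

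The windows of 250 bases upstream were searched on both strands for TGGGAA (the core bound by the Notch effector RBPJ), GGAATG (TEAD factors), TGTTTAC (forkhead factors), ACGTG (the core of hypoxia response elements) and the CArG box of serum response factor. TGGGAA occurred in the windows of Abcc9, Gucy1b1, Trpc6 and Cox4i2, compared with 22.7% of 21757 promoters of protein-coding genes. GGAATG occurred in those of Abcc9, Trpc6, Atp13a5 and Cox4i2, against a share of 12.1% of all promoters. Cox4i2 alone held ACGTG, a motif of 17.0% of promoters, and there its matches on both strands overlapped the TGGGAA match in a single run of capitals. The CArG box was present only in the Kcnk3 window (1.40% of promoters), and TGTTTAC (2.72%) in none. Exons of other isoforms covered 150 of the 250 bases for Kcnk3, and its match, 32 bases upstream, lies in them. They covered 217 bases for Trpc6, 184 for Higd1b, 150 for Abcc9 and 58 for Cox4i2. The TGGGAA and GGAATG matches of Abcc9, 123 and 121 bases upstream, overlap each other and lie outside the stretch printed above, as does the GGAATG match of Cox4i2, and those at 178 and 176 bases upstream of Trpc6 overlap as well. These matches describe the letters only. The pairs differed in CpG dinucleotides as well, with 11 in the Kcnj8 window and 8 in that of Abcc9, whereas the windows of Gucy1a1 and Gucy1b1 had 0 and 5.

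Most of the 10 genes differed between lung and cortex pericytes. Kcnj8, Abcc9, Atp13a5, Higd1b and Rgs5 had lower levels in the lung and Gucy1a1, Gucy1b1, Kcnk3 and Trpc6 higher ones, in both control lungs. A gene was counted as higher or lower when levels were at least 2-fold apart and the exact 95% interval of their ratio did not include equal levels. By this rule, 4 genes were higher and 5 lower in the Bdnf control lung than in the Nodal control cortex, where 14.7% and 11.9% of 11245 genes with at least 10 UMIs over both libraries were. In the Hgf control lung 5 were higher and 5 lower, against 8.88% and 4.56% of 10703 genes. The median log2 ratio of the 10 genes was -0.33 and 0.32 in these comparisons, beside 0.01 and 0.60 over all genes tested, with Atp13a5 at its bound. Both comparisons use the same cortex library. Scaling by the median of gene ratios shifted all log2 ratios by -0.30 and -0.59, respectively, and changed no call among the 10 genes. When the control lungs were set against each other, Rgs5 was higher in the Hgf control (log2 ratio 1.29) and Trpc6 lower (-1.01), while the other genes did not pass the rule, against 4.2% and 2.37% of 6173 genes higher and lower.

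**Figure D1:**
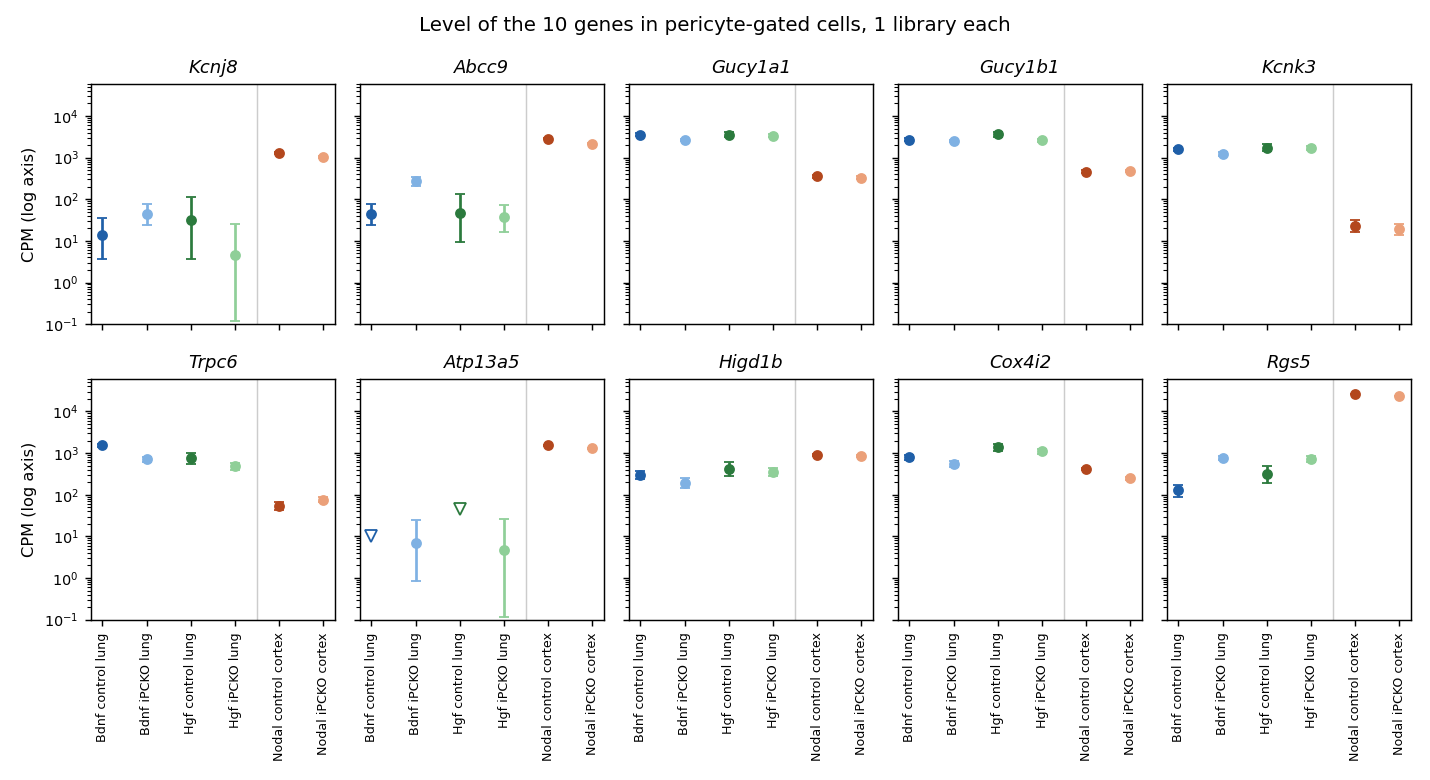
Level of the 10 genes in pericyte-gated cells of each library, in UMIs per 1000000 UMIs (CPM, log axis), with exact Poisson 95% intervals and open triangles at the limit of 3 UMIs where no UMI was counted. The 4 lung libraries, left of the grey line, lie on the same side of both cortex libraries in every panel, with Rgs5 at 23368 CPM or more in the cortices and at 765 CPM or less in the lungs.

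The genes of the ATP-sensitive potassium channel were high in cortex pericytes and low in lung pericytes. Kcnj8, the pore, had 13.7 CPM in pericyte-gated cells of the Bdnf control lung, 45.4 in the Bdnf iPCKO, 31.0 in the Hgf control and 4.66 in the Hgf iPCKO lung, and 1313 and 1044 CPM in the Nodal control and iPCKO cortex. Abcc9, the receptor subunit, had 44.6, 269, 46.6 and 37.3 CPM in the lungs in that order and 2840 and 2162 CPM in the cortices. The lung values of both genes were low and rest on few UMIs, 4 and 2 for Kcnj8 and 13 and 3 for Abcc9 in the Bdnf and Hgf controls, whereas each cortex had at least 1930. The level of Kcnj8 was 95.7-fold lower in the Bdnf control lung than in the Nodal control cortex (log2 ratio -6.58, interval -8.46 to -5.22), and the log2 ratio was -5.40 (-8.45 to -3.55) for the 2 UMIs of the Hgf control. The log2 ratio of Abcc9 was -5.99 (-6.90 to -5.22) and -5.93 (-8.21 to -4.38). When Leiden clusters named from the same markers replaced the gate, with 202, 156 and 227 cells in the Bdnf, Hgf and Nodal controls, Kcnj8 was at -8.32 and -7.26 and Abcc9 at -8.60 and -7.87. The Leiden log2 ratios of the other genes given below were lower than those of the gate as well. These intervals, like all others given here, cover counting error only.

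Single barcodes showed the same contrast. Kcnj8 was detected in 97.2% of pericyte-gated barcodes of the Nodal control cortex (exact Clopper-Pearson 95% interval 94.4 to 98.9) and Abcc9 in 97.6%, and 244 of 254 barcodes held UMIs of both subunits. In the Bdnf control lung Kcnj8 was found in 4 and Abcc9 in 7 of 74 barcodes, and no barcode held both. With each barcode thinned to 700 UMIs, Abcc9 remained in 79.9% of the Nodal control cortex barcodes and in 2.7% of those of the Bdnf control lung, compared with 0.103% of alveolar type 2 cells of that lung, which should lack it. Kcnj11 and Abcc8, the corresponding subunits of the channel in pancreatic beta cells, had no UMI in pericyte-gated cells of any library.

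In the control lungs, the channel genes had their highest levels in other mesenchymal classes. The highest Kcnj8 level was in myofibroblast-gated cells, with 95.3 and 193 CPM in the Bdnf and Hgf controls, ahead of collagen fibroblasts with 27.5 and 40.1 CPM. Abcc9 followed the same order, at 355 and 503 CPM in myofibroblasts and 325 and 389 CPM in collagen fibroblasts. The log2 ratio of pericyte-gated cells to myofibroblasts in the Bdnf control lung was -2.80 for Kcnj8 and -2.99 for Abcc9. Myofibroblasts also had the highest level of both genes in the Hgf iPCKO lung and of Kcnj8 in the Bdnf iPCKO lung, whereas Abcc9 in the latter was at 269 CPM in pericytes and 253 CPM in collagen fibroblasts, within 2-fold. There 5 of 88 pericyte-gated barcodes held 85.7% of the Abcc9 UMIs of pericytes. In the Nodal control cortex, where no myofibroblast class was gated, pericyte-gated cells had 30.5-fold more Kcnj8 and 47.0-fold more Abcc9 than smooth muscle, the next class.

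**Figure D2:**
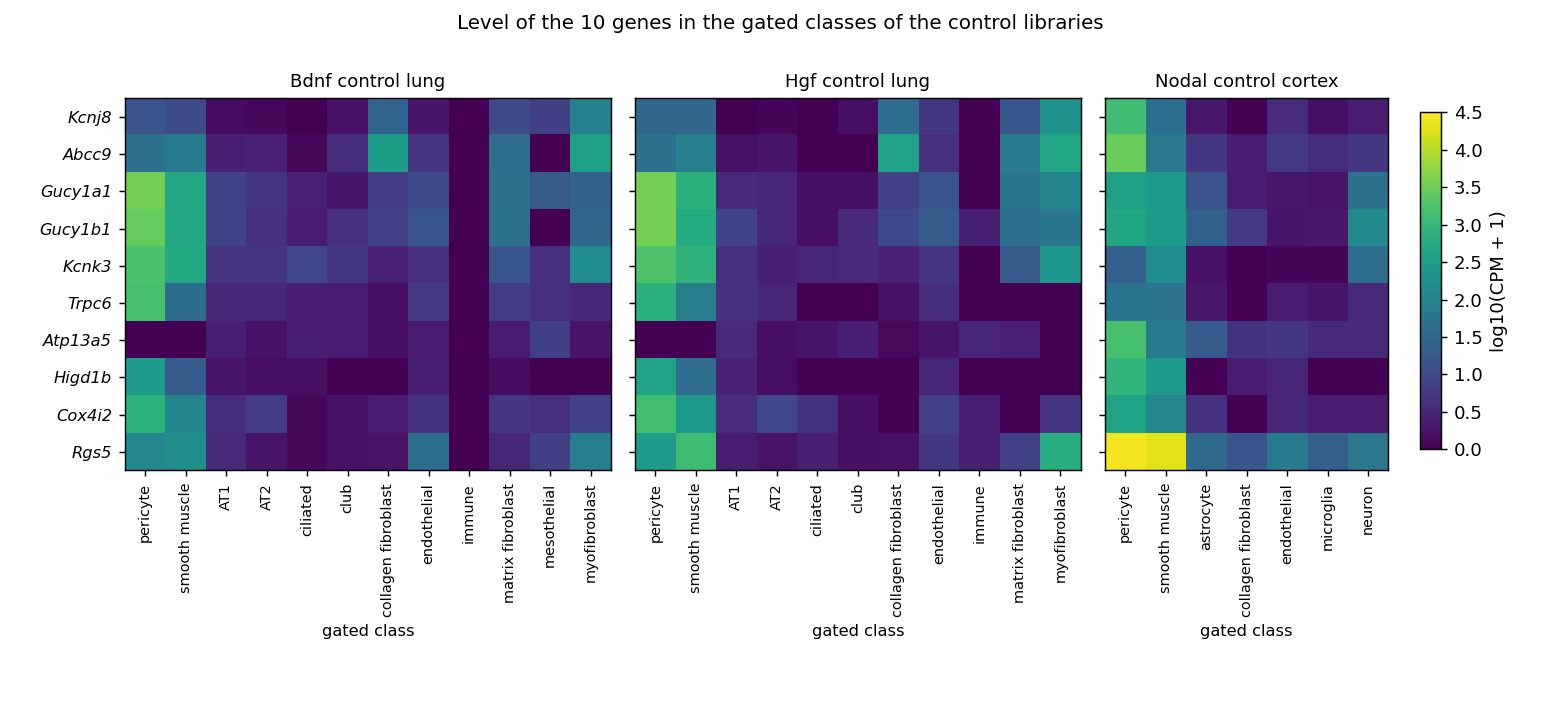
Level of the 10 genes, as log10(CPM + 1), in the cell classes with at least 20 barcodes of the 3 control libraries, with pericytes in the first and smooth muscle in the second column of each panel. Kcnj8 and Abcc9 are brightest in myofibroblasts and collagen fibroblasts in both lungs and in pericytes in the cortex.

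Soluble guanylyl cyclase was present in pericytes of both organs, at a higher level in the lung. Gucy1a1 had 3585, 2637, 3585 and 3373 CPM in the Bdnf control, Bdnf iPCKO, Hgf control and Hgf iPCKO lung, and 354 and 334 CPM in the control and iPCKO cortex. Gucy1b1 had 2700, 2508, 3616 and 2613 CPM in the lungs and 461 and 469 CPM in the cortices. Each lung level was thus above both cortex levels for the alpha and for the beta subunit. The level of Gucy1a1 was 10.1-fold higher in either control lung than in the control cortex (log2 ratios 3.34, with intervals of 3.18 to 3.49 and of 3.11 to 3.56). Gucy1b1 was 5.85-fold higher in the Bdnf and 7.84-fold higher in the Hgf control lung. The size depended on how cells were assigned, since Leiden clusters gave log2 ratios of 1.55 and 1.80 for Gucy1a1 and of 0.91 and 1.17 for Gucy1b1, which then failed the rule in the Bdnf control. Both were widespread in either organ, with Gucy1b1 in 100% and 97.0% of pericyte-gated barcodes of the control lungs and 85.8% of those of the control cortex, or 83.8%, 81.8% and 28.3% after thinning.

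Next to pericytes, smooth muscle had the highest cyclase levels. Gucy1a1 in smooth muscle-gated cells was at 524 CPM in the Bdnf control lung, 774 CPM in the Hgf control lung and 279 CPM in the Nodal control cortex. The pericyte level exceeded that of smooth muscle 6.84-fold, 4.63-fold and 1.27-fold in these libraries. The pericyte and smooth muscle levels of Gucy1a1 and Gucy1b1 in the cortex, 354 against 279 and 461 against 291 CPM, differed by less than 2-fold. In smooth muscle the lung to cortex log2 ratio of Gucy1a1 was 0.91 and 1.47.

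Some genes of cGMP signaling were higher in lung pericytes of both controls. Prkg1, the cGMP-dependent protein kinase, had 3710 and 1816 CPM in pericytes of the Bdnf and Hgf controls against 206 CPM in the control cortex. Pde5a, the phosphodiesterase that breaks down cGMP, had 2871 and 4485 against 418 CPM. Npr3, the clearance receptor of natriuretic peptides, had 120 and 109 against 10.9 CPM, and Pde3a, a cGMP-inhibited phosphodiesterase, 676 and 574 against 167 CPM. The Npr3 levels rest on 35 and 7 against 16 UMIs. Of the 17 genes listed for nitric oxide, natriuretic peptide and cGMP signaling, 13 could be compared in each lung, of which 6 were higher and 2 lower in the Bdnf control and 4 higher and 1 lower in the Hgf control (of all genes, 14.7% and 11.9% and then 8.88% and 4.56%), with a median log2 ratio of 1.44 and 0.48 beside 0.01 and 0.60 over all genes. Gucy1a2, the alternative alpha subunit, was at 402 and 124 CPM in the lungs and 88.9 CPM in the cortex, and its ratio passed the rule only in the Bdnf control.

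Kcnk3 had the largest lung to cortex ratio of the 10 genes in both controls. Its level was 1581, 1240, 1754 and 1738 CPM in pericyte-gated cells of the 4 lungs and 23.1 and 19.1 CPM in the cortices, a 68.4-fold difference for the Bdnf and a 75.8-fold difference for the Hgf control (log2 ratios 6.10, 5.59 to 6.64, and 6.24, 5.68 to 6.84). With Leiden clusters the log2 ratios were 4.38 and 4.43. UMIs of Kcnk3 were in 89.2% (79.8 to 95.2) and 75.8% (57.7 to 88.9) of barcodes of the control lungs and in 9.06% (5.83 to 13.3) of those of the control cortex. In the control cortex pericytes did not have the highest level, since smooth muscle-gated cells had 154 CPM and neurons 41.4 CPM against the 23.1 CPM of pericytes. Smooth muscle of the lungs had 544 and 853 CPM, and its lung to cortex log2 ratio was 1.82 and 2.47.

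Among other potassium channel genes, Kcnq5, a voltage-gated channel of the M-current family, was higher in lung pericytes, with 3622 and 962 CPM in the control lungs against 4 UMIs or 2.72 CPM in the control cortex. Kcnmb1, the beta subunit of the large-conductance calcium-activated channel, and Kcne4, an accessory subunit of voltage-gated channels, differed the other way, at 17.2 and 15.5 against 127 CPM and at 27.4 and 31.0 against 215 CPM, although the lung values rest on 5 and 1 UMIs of Kcnmb1 and 8 and 2 of Kcne4. Of 17 listed potassium channel genes 7 could be compared in each lung, with 2 higher and 2 lower in the Bdnf control and 1 higher and 2 lower in the Hgf control, against higher and lower shares of 14.7% and 11.9% of all genes in the Bdnf control and 8.88% and 4.56% in the Hgf control. Their median log2 ratio was 0.01 and 1.05, beside 0.01 and 0.60 over all genes.

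Trpc6 was likewise higher in lung pericytes, and it set them apart from smooth muscle. Pericyte-gated cells had 1537, 716, 760 and 489 CPM in the 4 lungs and 53.1 and 76.9 CPM in the control and iPCKO cortex. The log2 ratio to the control cortex was 4.86 (4.51 to 5.22) in the Bdnf and 3.84 (3.29 to 4.37) in the Hgf control, or 3.10 and 2.53 with Leiden clusters. The 4 lungs varied more in Trpc6 than in the cyclase subunits, but the lowest lung level stayed above both cortices. In the Bdnf control lung the level of pericytes was 40.9-fold that of smooth muscle, which had 37.6 CPM, and in the Hgf control 9.64-fold. In the control cortex, by contrast, pericytes and smooth muscle had 53.1 and 51.2 CPM, and the smooth muscle of the 2 organs did not differ by the rule (log2 ratios -0.45 and 0.62).

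Other calcium genes were split between the organs. Cacna1c and Cacna1d, the pores of L-type calcium channels, were higher in lung pericytes, with 580 and 466 against 105 CPM and 144 and 93.1 against 31.6 CPM. Ano1, a calcium-activated chloride channel, was lower there, with 44.6 and 31.0 against 237 CPM. The lung values rest on 13 and 2 UMIs of Ano1 and 42 and 6 of Cacna1d. The log2 ratio of Cacna1d in the Hgf control had an interval of 0.05 to 2.80. The list as a whole had 5 genes higher and 5 lower among 17 compared in the Bdnf control and 3 higher and 2 lower among 16 in the Hgf control, at medians of 0.22 and 0.08 beside 0.01 and 0.60 over all genes. Of all genes, 14.7% were higher and 11.9% lower in the Bdnf control, and 8.88% and 4.56% in the Hgf control.

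Atp13a5 was found in cortex pericytes and hardly at all in lung pericytes. No UMI was counted in pericyte-gated cells of either control lung, where the limit of 3 UMIs corresponds to 10.3 and 46.6 CPM. The Bdnf and Hgf iPCKO lungs had 2 and 1 UMIs. The cortices had 1544 and 1300 CPM, and UMIs were in 92.9% and 89.4% of their pericyte-gated barcodes. Against the limit of 3 UMIs, the level was at least 150-fold lower in the Bdnf and at least 33.2-fold lower in the Hgf control lung. Lung classes with any UMI reached no more than 6.01 CPM in the control lungs, on 2 UMIs in the mesothelial cells of the Bdnf control. Within the control cortex, pericytes were 22.8-fold above smooth muscle at 67.6 CPM, and astrocytes had 19.1 CPM. Of the 4 other ATPases of its group, 3 could be compared, and 0 were higher and 1 lower in the Bdnf control lung and 1 higher and 0 lower in the Hgf control lung, at medians of 0.87 and 2.23 beside the 0.01 and 0.60 of all genes, of which 14.7% and 11.9%, and 8.88% and 4.56%, were higher and lower. The paralog Atp13a4 had 0 UMIs in pericytes of the control lungs and 6 in the control cortex.

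With the marker gate, Higd1b and Cox4i2 had the smallest differences between pericytes of the organs. Higd1b was at 295, 196, 419 and 349 CPM in the lungs and at 897 and 842 CPM in the cortices, with log2 ratios of -1.61 (-1.94 to -1.29) and -1.10 (-1.71 to -0.55) for the controls. Cox4i2 was at 799, 541, 1381 and 1095 CPM in the lungs and 415 and 249 CPM in the cortices. The Cox4i2 ratio fell just short of the rule in the Bdnf control, at 0.95 (0.72 to 1.17), and passed it in the Hgf control, at 1.73 (1.40 to 2.06). With Leiden clusters Cox4i2 passed in neither, at -0.53 and 0.17. Higd1b was then at -3.00 and -2.60, further from equal levels than Gucy1a1 and Gucy1b1, so that its place in the order depended on the assignment. Leiden clusters lowered every lung to cortex log2 ratio for which they are reported here, in both control lungs. They thus widened the differences of genes lower in the lung and narrowed those of genes higher there. The cause of this common shift was not tested. Pericytes had the highest level of all gated classes for both genes in every library. In the control lungs they were 14.9-fold and 10.6-fold above smooth muscle in Higd1b and 7.09-fold and 5.29-fold in Cox4i2, and in the control cortex 3.37-fold and 3.46-fold.

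The constitutive relative of Cox4i2, Cox4i1, went the other way, with 154 and 202 CPM in lung against 598 CPM in cortex pericytes (log2 ratios -1.95 and -1.57). Ndufa4l2, a low-oxygen relative of a further oxidase subunit, had 549 and 698 against 1036 CPM, within 2-fold. Higd1a, the relative of Higd1b, had 36.0 and 77.6 against 53.1 CPM. Of 12 mitochondrial and low-oxygen genes, 9 and 8 could be compared, and beyond Cox4i1 only Hif3a passed the rule, as higher in the Bdnf control lung, where 14.7% of all genes were higher and 11.9% lower, against 8.88% and 4.56% in the Hgf control lung. The median log2 ratio of the list was -0.61 and 0.61, beside 0.01 and 0.60 over all genes.

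Rgs5 was high in cortex pericytes and low in lung pericytes. Its level was 127, 765, 310 and 708 CPM in the 4 lungs and 26045 and 23368 CPM in the cortices, where every pericyte-gated barcode held it, at a median of 137 and 133 UMIs a barcode. In the control lungs it was found in 24.3% (15.1 to 35.7) and 27.3% (13.3 to 45.5) of barcodes, and the level was 205-fold lower in the Bdnf and 83.9-fold lower in the Hgf control than in the control cortex (log2 ratios -7.68 and -6.39, or -8.91 and -7.67 with Leiden clusters). In the Hgf control lung Rgs5 was above the pericyte level in smooth muscle and myofibroblasts, with 1242 and 644 CPM. In the Bdnf control lung smooth muscle had 164 CPM and did not differ from pericytes by the rule (log2 ratio of pericytes to smooth muscle -0.37, -0.97 to 0.20), and myofibroblasts had 83.9 CPM. In the Bdnf iPCKO lung pericytes ranked above smooth muscle, with 765 against 312 CPM, but 5 of the 88 pericyte-gated barcodes held 80.4% of their Rgs5 UMIs. In the Hgf iPCKO lung the levels of pericytes and smooth muscle were 708 and 704 CPM. In the cortex, smooth muscle came close to pericytes with 20966 CPM (1.24-fold apart). Microglia of the control cortex, which should lack it, had Rgs5 at 22.4 CPM and in 1.91% of thinned barcodes.

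Rgs4, a relative of Rgs5, was lower in lung pericytes as well, with 374 and 466 CPM in the control lungs and 1980 CPM in the control cortex. The receptors upstream of such regulators were divided. Agtr1a, the angiotensin II receptor, was higher in lung pericytes at 432 and 574 against 10.2 CPM. Tbxa2r, the thromboxane receptor, and Adora2a, an adenosine receptor, had no UMI in either control lung and 335 and 118 CPM in the control cortex, and Rgs16 had 1 and 0 UMIs against 154 CPM. Of 18 genes for G-protein regulators and vasoactive receptors, 3 were higher and 6 lower among 14 compared in the Bdnf control, and 1 was higher and 5 were lower among 13 in the Hgf control, where 14.7% and 11.9% of all genes, and 8.88% and 4.56%, were higher and lower. The medians of this list were -0.75 and -0.95, beside 0.01 and 0.60 over all genes.

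**Figure D3:**
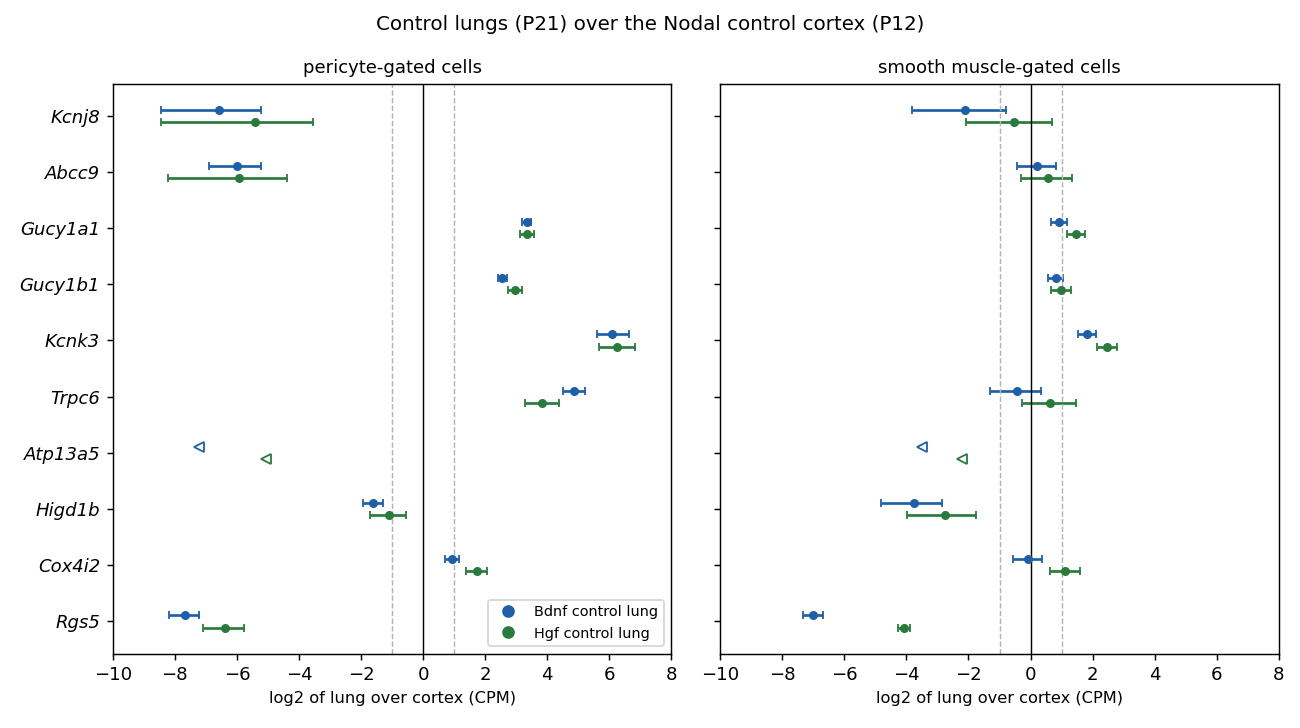
Log2 ratio of the level in each control lung (P21) to that in the Nodal control cortex (P12), in pericyte-gated cells on the left and smooth muscle-gated cells on the right, with exact 95% intervals, open triangles at the limit of 3 UMIs and dashed lines at a 2-fold difference. In pericytes Kcnj8, Abcc9, Atp13a5, Higd1b and Rgs5 lie left of the dashed line and Gucy1a1, Gucy1b1, Kcnk3 and Trpc6 right of it in both lungs, whereas in smooth muscle Abcc9 and Trpc6 lie between the dashed lines.

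Differences between the organs in smooth muscle were not those of pericytes for every gene. Rgs5 was lower in lung smooth muscle as well, with log2 ratios of -7.00 and -4.08 in the Bdnf and Hgf controls, and so was Higd1b with -3.75 and -2.76. Abcc9, at -5.99 and -5.93 in pericytes, was at 0.19 and 0.55 in smooth muscle. The difference between the classes was not tested. Of all genes, 13.9% and 11.9% were higher and lower in smooth muscle of the Bdnf control and 9.49% and 8.34% in that of the Hgf control.

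The levels of the same genes could also be ordered within a library. Pericytes had the highest level among 7 classes of the control cortex for 9 genes, all but Kcnk3. Of these, Gucy1a1, Gucy1b1, Trpc6 and Rgs5 were within 2-fold of smooth muscle and did not pass the rule against it. Among 12 classes of the Bdnf and 11 of the Hgf control lung pericytes ranked first for Gucy1a1, Gucy1b1, Kcnk3, Trpc6, Higd1b and Cox4i2. Each of the latter passed the rule against the next class in both lungs. The share of all genes that rank first in pericytes is not given here. Against the other gated classes together, 7 genes were at least 2-fold higher in pericytes of each control lung, where 7.93% and 6.99% of genes were, and 10 in the control cortex, where 7.13% of genes were. In the Bdnf iPCKO lung, Hgf iPCKO lung and Nodal iPCKO cortex 9, 8 and 10 genes were, against 7.29%, 8.94% and 7.42% of all genes. In the Bdnf iPCKO lung the top 5 of 88 barcodes held 85.7% of the Abcc9 and 80.4% of the Rgs5 UMIs of pericytes. Markers of other cells were present in pericytes of the control lungs. Against 5060 and 6674 CPM for the 6 pericyte markers, the 9 collagen fibroblast markers summed to 3248 and 3228 CPM in the Bdnf and Hgf controls, with 6 and 4 of them detected and Serpinf1, Pi16 and Lum at 0 in both. The 7 alveolar type 2 markers summed to 1032 and 1878 CPM, 6 matrix fibroblast markers to 918 and 1242 CPM, 4 club cell markers to 504 and 481 CPM, 10 smooth muscle markers to 475 and 590 CPM, 6 myofibroblast markers to 158 and 233 CPM and 9 endothelial markers to 190 and 124 CPM. In pericytes of the control cortex 8 astrocyte markers summed to 1953 CPM, with Aqp4 at 0, and the collagen fibroblast markers to 1082 CPM, beside 10913 CPM for the pericyte markers. Their part in the levels was not tested.

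Across the 61 pairs of a library and a cell class, the pattern of each gene was compared with those of 22336 genes by Pearson's r of log2(CPM + 1). The points share libraries, depth and, in the mural classes, their origin, and the values are descriptive. Kcnj8 and Abcc9 were each other's nearest gene (r = 0.93), followed by Ecm2 for Kcnj8 (0.85) and the endothelin receptor Ednra for Abcc9 (0.88). Gucy1a1 and Gucy1b1 were also each other's nearest gene (0.94), ahead of Trarg1 (0.87) and Ehd3 (0.89), and both were the nearest genes of Kcnk3 (0.87). Trpc6 was most like Trarg1 (0.90) and Cox4i2 (0.89), Higd1b like Zfp663 (0.94) and Cox4i2 (0.92), and Cox4i2 like Higd1b and Trarg1 (0.91). Atp13a5 was most like the unnamed genes 5033404E19Rik (0.90) and Gm36823 (0.86), and Rgs5 like Fam118a (0.85) and Rgs4 (0.84). Between the 10 genes, the lowest value was that of Kcnk3 with Atp13a5 (0.03).

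The comparison of mutants with their controls asked whether these genes change when pericytes lose Bdnf, Hgf or Nodal. In the Bdnf iPCKO lung, 3 genes were higher (Kcnj8, Abcc9 and Rgs5) and 1 was lower (Trpc6) in pericyte-gated cells, where 5.6% and 2.79% of 7916 genes were higher and lower. In the Hgf iPCKO lung only Rgs5 was higher and none was lower, against 4.16% and 4.49% of 5436 genes. In the Nodal iPCKO cortex none of the 10 genes passed the rule, against 1.87% and 1.61% of 12887 genes. The median log2 ratio was -0.35 over 9 genes, -0.29 over 8 and -0.20 over 10, leaving out genes with at most 3 UMIs in both libraries, beside 0.03, 0.05 and 0.00 over all genes. Without replicates, a difference between genotypes cannot be told apart from one between libraries, and the control lungs differed by the rule in Rgs5 and Trpc6 among themselves.

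**Figure D4:**
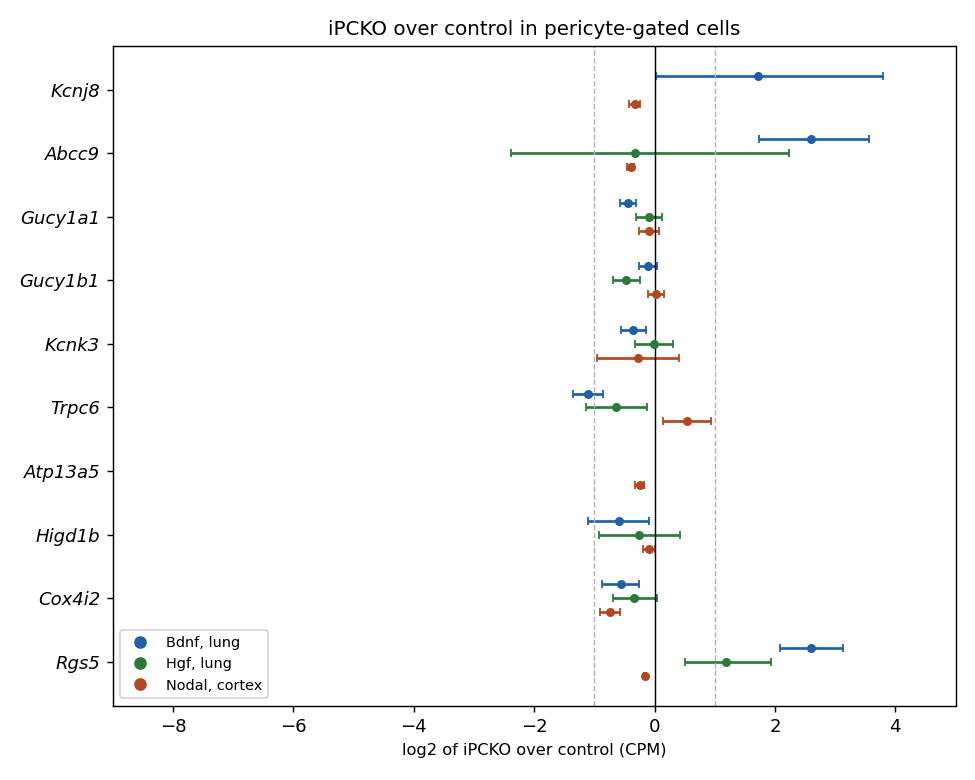
Log2 ratio of the level in iPCKO to that in control pericyte-gated cells for the Bdnf lung, Hgf lung and Nodal cortex pairs, with exact 95% intervals and dashed lines at a 2-fold difference. Abcc9 and Rgs5 in the Bdnf lung lie furthest to the right at 2.59, the Nodal cortex values all lie between the dashed lines, and genes with at most 3 UMIs in both libraries of a pair have no point.

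In the Bdnf pair, Abcc9 was 6.03-fold higher in the mutant (269 against 44.6 CPM, log2 ratio 2.59, 1.73 to 3.57) and Rgs5 also 6.03-fold (765 against 127 CPM, 2.59, 2.08 to 3.14). Kcnj8 was 3.31-fold higher on 13 against 4 UMIs, with an interval of 0.03 to 3.80. These transcripts sat in few barcodes. The 77 Abcc9 UMIs of the mutant were in 14 of 88 barcodes, the top 5 of which held 85.7%, and the 219 Rgs5 UMIs were in 29 barcodes with 80.4% in the top 5. Barcodes with a UMI of Acta2, Myh11 or Tagln, genes of contractile smooth muscle, numbered 50 of 88 and held 92.2% of the Abcc9, 87.7% of the Rgs5 and 92.3% of the Kcnj8 UMIs. In the control such barcodes numbered 41 of 74 and held 30.8% of the 13 Abcc9, 56.8% of the 37 Rgs5 and 0 of the 4 Kcnj8 UMIs. When barcodes with such a UMI were left out of both libraries, Abcc9 was at -0.63 (-2.40 to 1.03) and Rgs5 at 0.71 (-0.23 to 1.70), and neither passed the rule. With Leiden clusters in place of the gate, Kcnj8, Abcc9 and Rgs5 were at 0.23, 0.68 and 0.71, and none passed. The 10 smooth muscle markers summed to 475 CPM in pericytes of the control and 454 CPM in those of the mutant, the 9 endothelial markers to 190 and 409 CPM, the 4 club cell markers to 504 and 1202 CPM, the 7 alveolar type 2 markers to 1032 and 1403 CPM, the 9 collagen fibroblast markers to 3248 and 3748 CPM (6 and 9 detected), and the estimated share of free RNA was 7.69% and 13.1%. The part of these in the differences was not tested.

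Trpc6 was 2.15-fold lower in the Bdnf mutant (716 against 1537 CPM, log2 ratio -1.10, -1.35 to -0.86), and this was spread over the barcodes. The Hgf control lung, at 760 CPM, was also lower than the Bdnf control (-1.01, -1.47 to -0.59). A difference between genotypes therefore cannot be told apart from one between libraries. The share of barcodes with a Trpc6 UMI was 91.9% in the control and 63.6% in the mutant, or 58.1% and 29.5% after thinning, and the median was 5 and 1 UMIs. The same gene had log2 ratios of -0.64 (-1.14 to -0.12) in the Hgf pair and of 0.54 (0.14 to 0.94) in the Nodal pair, which did not pass the rule, and whether the pairs differ was not tested. Smooth muscle of the Bdnf mutant lung was lower in Trpc6 (-2.42, on 8 against 19 UMIs), Cox4i2 (-2.42), Higd1b (-1.68, on 7 against 10 UMIs), Gucy1a1 (-1.24) and Kcnk3 (-1.11), where 7.05% of genes were lower and 1.85% higher. Smooth muscle of the control lungs differed too. Rgs5 (2.92), Cox4i2 (1.21) and Trpc6 (1.07) were higher in the Hgf than in the Bdnf control, where 3.64% of genes were higher and 4.26% lower. Higd1b, Gucy1a1 and Kcnk3 did not pass the rule between these controls. In pericytes, the Bdnf pair had log2 ratios of -0.44 for Gucy1a1, -0.11 for Gucy1b1, -0.35 for Kcnk3, -0.56 for Cox4i2 and -0.59 for Higd1b, all within 2-fold. Prkg1 and Gucy1a2, from the cGMP list, were lower in the mutant at -1.41 and -1.84. Both were also lower in the Hgf than in the Bdnf control lung, at -1.03 and -1.69.

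In the Hgf pair, Rgs5 was 2.28-fold higher in the mutant (708 against 310 CPM, log2 ratio 1.19, 0.51 to 1.94). Here the UMIs were more evenly spread, with 152 in 57 of 130 barcodes and 23.7% in the top 5, but the control value rests on 20 UMIs in 9 of 33 barcodes. Counting the mural barcodes between pericytes and smooth muscle as pericytes took the log2 ratio to 0.09 (-0.27 to 0.46). Gucy1a1, Kcnk3, Abcc9, Higd1b and Cox4i2 had log2 ratios of -0.09, -0.01, -0.32, -0.26 and -0.34, and Gucy1b1 of -0.47. The Abcc9 ratio rests on 8 against 3 UMIs, and its interval of -2.38 to 2.23 leaves its size undetermined. Pde5a, from the cGMP list, was lower at -1.48. Endothelial markers summed to 124 CPM in the Hgf control and to 599 CPM in the Hgf iPCKO pericytes, club cell markers to 481 and 1598 CPM, alveolar type 2 markers to 1878 and 722 CPM and collagen fibroblast markers to 3228 and 3445 CPM, and free RNA was estimated at 4.35% and 15.3%, whose part in the ratios was not tested. No ratio is given for Kcnj8, with 1 against 2 UMIs, or for Atp13a5, with 1 against 0.

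**Figure D5:**
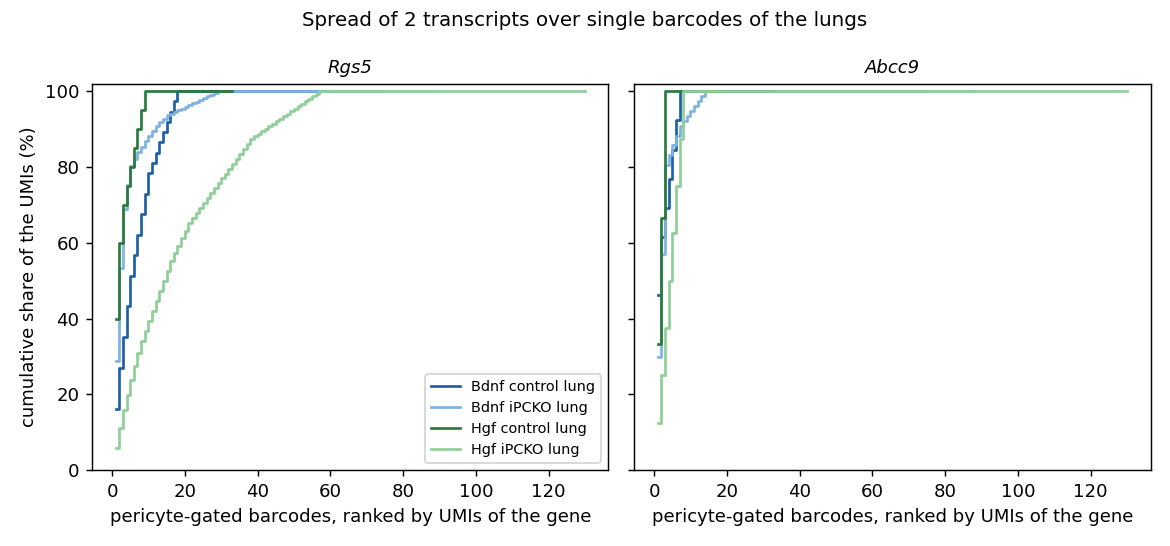
Cumulative share of the Rgs5 UMIs (left) and Abcc9 UMIs (right) over pericyte-gated barcodes of the 4 lung libraries, ranked from the barcode with the most UMIs of that gene. In the Bdnf iPCKO lung the top 5 barcodes hold 80.4% of the Rgs5 and 85.7% of the Abcc9 UMIs, and in the Hgf iPCKO lung they hold 23.7% of the Rgs5 UMIs.

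The Nodal pair had the most pericyte-gated cells and UMIs. Cox4i2 was furthest from equal levels, with 249 against 415 CPM (log2 ratio -0.74, -0.91 to -0.57). Abcc9 was at -0.39 (-0.45 to -0.33), Kcnj8 at -0.33 (-0.42 to -0.24), Atp13a5 at -0.25 (-0.33 to -0.17) and Rgs5 at -0.16 (-0.18 to -0.14). These intervals do not include equal levels but lie within 2-fold. The same holds for Trpc6, which was higher in the mutant at 0.54 (0.14 to 0.94). The intervals of Gucy1a1 (-0.09), Gucy1b1 (0.03), Higd1b (-0.09) and Kcnk3 (-0.27) include equal levels and also lie within 2-fold. In smooth muscle of the same pair the log2 ratio of Cox4i2 was -0.62 (-1.05 to -0.19), and none of the 10 genes passed the rule there, against 1.17% of all genes higher and 2.79% lower.

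The related lists were counted in the mutants in the same way. For the Bdnf pair, where 5.6% of all genes were higher and 2.79% lower, the potassium channel list had 2 genes lower of 4 compared, the cGMP list 1 higher and 2 lower of 11, the calcium list 1 higher and 1 lower of 14, and the mitochondrial list 1 higher of 8. The Hgf pair, where 4.16% of all genes were higher and 4.49% lower, had 1 gene lower of 7 in the cGMP list, 3 higher of 9 among G-protein regulators and receptors (Rgs2, Gnaq and Ednrb, named after their values were seen) and 1 higher of 7 in the mitochondrial list. In the Nodal pair, where 1.87% and 1.61% of all genes were higher and lower, 1 gene was higher and 1 lower of 10 in the mitochondrial list and 1 lower of 4 among the ATPases. The median log2 ratio of the cGMP list was -0.50, -0.40 and 0.04 in the 3 pairs, beside 0.03, 0.05 and 0.00 over all genes, and in the other lists no gene passed.

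Each of the 10 genes was also compared between the organs of the mutants. Against the Nodal iPCKO cortex, Gucy1a1, Gucy1b1, Kcnk3, Trpc6 and Cox4i2 were higher and Kcnj8, Abcc9, Atp13a5, Higd1b and Rgs5 lower in both the Bdnf and the Hgf iPCKO lung, where 15.1% and 13.4% of genes were higher and 9.61% and 9.56% lower. Kcnk3 was at 6.02 and 6.51, Gucy1a1 at 2.98 and 3.34, Abcc9 at -3.01 and -5.86, and Rgs5 at -4.93 and -5.04 on the log2 scale. In the Bdnf lungs Abcc9 was thus 8.04-fold lower than in the cortex among mutants and 63.7-fold lower among controls, Rgs5 30.5-fold and 205-fold lower, and Cox4i2, at 1.12, passed the rule among mutants only. In the Bdnf iPCKO lung 3 of the 88 barcodes held 80.5% of the Abcc9 UMIs and 5 held 80.4% of the Rgs5 UMIs, and whether the organ differences of controls and mutants differ was not tested.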

How the data were processed

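Lung and cortex cells were profiled as 6 single-cell libraries, 1 per condition. The authors deposited estimated counts of UMIs per gene and barcode, which need not be whole because reads of several genes are shared out (8.5 to 9.95% of entries). The submitters' processing notes name STAR 2.7.10a and GRCm39. Sums of these estimated counts over barcodes were rounded to whole UMIs. Unmapped columns numbered 0.

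Barcodes with at least 1500 UMIs (700 in the Hgf libraries) were pericyte-gated when they held at least 2 of 6 markers, at least 3 marker UMIs including Notch3, a marker level of at least 0.25 of the reference, smooth muscle markers below 0.1 and markers of other classes below 0.25. This class is a range cut from a per-barcode score, and 13 to 45 barcodes a library lay just inside the smooth muscle limit. They were 22 of 74 in the Bdnf control, 35 of 88 in the Bdnf iPCKO, 18 of 33 in the Hgf control and 45 of 130 in the Hgf iPCKO lung. In the Nodal control and iPCKO cortex they were 13 of 254 and 29 of 376. The part of this imbalance in the lung to cortex ratios was not tested. No doublet caller was run, and the gate removed only barcodes whose markers of other classes reached these limits. Members and lists were chosen with earlier results of these data known, and gate limits were set after marker levels had been seen. Levels are UMIs per 1000000 UMIs of a class, with exact Poisson intervals, shares have exact Clopper-Pearson intervals, and log2 ratios have exact conditional binomial intervals, all at 95% and for counting error only. A gene without UMIs was set at the limit of 3 UMIs. Genes with at least 10 UMIs over both libraries together formed the background. UMIs are tags of the 3′ end, so that levels were compared between samples and classes, not between genes. All 10 genes are named, and of each of 6 lists at most 4 genes that passed the rule in the same direction in both control lungs, by mean size of the log2 ratio, besides relatives and partners of the 10 genes. Hif3a was added after its values were seen. A list gene that the rule names is not reported here. Positions and sequences are from GRCm39 with GENCODE annotation. Scripts were tested on simulated data and used python 3.11.15, numpy 2.4.6, scipy 1.17.1, scanpy 1.11.5 and leidenalg 0.10.2.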

Additional observations from a re-analysis of the deposited data

How the results depend on the processing

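No paired analysis was possible because each condition had 1 library and the labels give no replicate numbers. Of 561 log2 ratios recomputed under alternatives, 500 stayed within the counting interval of the reported value, 60 left it, and 1 that had passed the rule changed sign, namely Abcc9 in the Bdnf pair, at -0.63 without barcodes that held a smooth muscle UMI. Ratios that had not passed the rule changed sign too, among them Cox4i2 between the Bdnf control lung and cortex, at -0.53 with Leiden clusters, and Gucy1a1 and Kcnk3 in the Hgf pair, at 0.15 and 0.23 with median-of-ratios scaling. Without barcodes holding an Acta2, Myh11 or Tagln UMI 0 genes were higher and 2 lower in the Bdnf mutant, in place of 3 and 1. With Leiden clusters 0 were higher in the Bdnf mutant, and 1 was lower in the Hgf mutant in place of 0. The 1 gene higher in the Hgf mutant became 0 with Pdgfrb added to the gate and 0 with the mural barcodes between counted as pericytes, both chosen after seeing the data. Kcnj8 in the Bdnf pair was at 1.70 with 1 more marker required, 1.64 without the Notch3 requirement and 1.64 with a mitochondrial filter, with intervals that included equal levels. The number of genes with a UMI in at least 50% of pericyte-gated barcodes was 3 in place of 5 in the Bdnf mutant and 4 in place of 8 in either cortex after thinning to 700 UMIs. Counts of the 10 genes higher or lower in lung than in cortex stayed within 1.5 times under the alternatives run. The share of all genes lower in the Bdnf control lung than in cortex was 19.5% at a minimum of 50 UMIs and 6.72% without one, and in the Hgf control lung 9.25% and 2.57%. Among mutants these shares were 15.9% and 5.57% in the Bdnf lung and 15.9% and 5.55% in the Hgf lung. Of all genes, 6.65% at 50 UMIs and 1.01% without a minimum were lower in the Hgf than in the Bdnf control lung, and 2.46% were higher without one. Against its control, the Bdnf mutant had 3.24% higher and 1.54% lower without a minimum. In the Hgf mutant 9.88% were higher at 50 UMIs, and 1.65% higher and 2.65% lower without a minimum. In the Nodal mutant 1.09% were higher and 0.435% lower at 50 UMIs, and 1.10% higher without a minimum. The 33 pericyte-gated barcodes of the Hgf control limit what can be seen of genes with few UMIs.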
